A study of Mus musculus with 2 samples.

Results

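The 9 genes described here encode light chains of muscle myosin and the kinases that phosphorylate them: Myl1, Myl2, Myl3, Myl4, Myl6, Myl7, Myl9, Mylk and Mylk3. They were listed by gene symbol and not by a cutoff on their values, but with earlier results of these data known. Of the 9 symbols, 8 matched a row of the deposited gene table, which lists 19465 mouse genes, and Myl6 had no row in the gene table used here and was not analysed. All 8 passed the minimum of 20 unique molecular identifiers (UMIs, each standing for 1 captured probe molecule) over both sections, as did 15236 genes in all.

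The data were 2 formalin-fixed, paraffin-embedded mouse heart sections, each cut at 5 μm and read by probe hybridization on the Visium CytAssist platform, in which every spot of a capture grid collects RNA from a small region that can hold several cell types. The control section came from an α-MHC-MerCreMer+/− mouse, which carries a tamoxifen-inducible Cre recombinase driven by the cardiomyocyte α-MHC promoter. The TOP2B transgenic section came from an α-MHC-MerCreMer+/− hTOP2BLSL/− mouse, in which Cre removes a floxed stop cassette in front of a human topoisomerase II β cDNA at the Rosa26 locus under the CAG promoter. Both mice carried Cre and received 1 intraperitoneal dose of 80 mg/kg tamoxifen. The study's methods give an age of 6 weeks for transgenic mice induced with this dose, and the time of harvest of these sections was not given in the sources used here.

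The control section held 1256 spots under tissue and 14376300 UMIs, and the transgenic section held 924 spots and 12953389 UMIs, with medians of 11335.5 and 14531 UMIs per spot. The sections were of unlike shape, with 230 of 1256 control spots and 311 of 924 transgenic spots on a tissue edge. Erythroid genes took 0.214% of the control UMIs and 2.04% of the transgenic UMIs. Mouse Top2b was at 106 UMIs per 1000000 (CPM) in the control against 102 CPM in the transgenic section, and whether its probes read the human cDNA was not stated in the sources used here, so it does not check the labels. With 1 section per group there is no replicate and no test. Every interval below is a 95% interval that covers counting error only, and differences between the sections describe these libraries. Genotype cannot be told apart from the mouse, the plane of the section or the library, and in a spot fewer cells of a type cannot be told apart from less RNA per cell.

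A muscle myosin molecule carries on the neck of each heavy chain an essential and a regulatory light chain. Myl2 and Myl3 are the regulatory and essential chains of the ventricle and of slow skeletal muscle, Myl7 and Myl4 those of the atrium, Myl4 being also expressed in embryonic striated muscle. Myl1 is the essential chain of fast skeletal muscle, Myl9 the regulatory chain of smooth muscle and Myl6 the essential chain of smooth muscle and nonmuscle cells. Phosphorylation of the regulatory chain starts contraction in smooth muscle and tunes its force in heart muscle. Mylk encodes the calcium and calmodulin-dependent kinase of smooth muscle and nonmuscle cells, and Mylk3 the cardiac kinase that acts on Myl2.

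RefSeq promoter windows were found for all 9 symbols, 12 windows in all. The 170 bases before the start are shown for 1 chain of each kind that differed between the sections, the fast skeletal, ventricular, atrial and smooth muscle chain, to set their regulatory sequences beside each other. Capitals mark CArG boxes, the binding motif of serum response factor, and the M-CAT motif CATTCC, read on both strands. The lines run 5′ to 3′.
Myl1, GRCm38.p6, chr1:66945057-66945226, minus strand: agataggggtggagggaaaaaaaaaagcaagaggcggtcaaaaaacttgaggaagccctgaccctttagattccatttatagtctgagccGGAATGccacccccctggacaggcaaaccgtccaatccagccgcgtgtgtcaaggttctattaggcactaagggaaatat
Myl3, GRCm38.p6, chr9:110763508-110763677, plus strand: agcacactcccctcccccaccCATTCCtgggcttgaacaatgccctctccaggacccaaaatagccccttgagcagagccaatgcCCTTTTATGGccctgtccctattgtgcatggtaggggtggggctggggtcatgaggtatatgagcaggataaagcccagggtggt
Myl7, GRCm38.p6, chr11:5898783-5898952, minus strand: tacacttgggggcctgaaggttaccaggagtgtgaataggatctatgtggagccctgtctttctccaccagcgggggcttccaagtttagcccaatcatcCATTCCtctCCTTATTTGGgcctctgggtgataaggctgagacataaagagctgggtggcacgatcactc
Myl9, GRCm38.p6, chr2:156775294-156775463, plus strand: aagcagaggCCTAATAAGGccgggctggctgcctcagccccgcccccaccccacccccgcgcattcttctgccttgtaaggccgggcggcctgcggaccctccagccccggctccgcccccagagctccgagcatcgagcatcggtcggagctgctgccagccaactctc

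Over the 250 bases before the start, a CArG box lay in windows of 4 members, Myl3, Myl6, Myl7 and Myl9, against 1.47% of all 32851 windows in the table. CATTCC lay in windows of 5 members, Myl1, Myl3, Myl7, Mylk and Mylk3, against 12.6% of all windows. A MEF2 box, found in 2.92% of all windows, was in none of the members' windows. Myl2 and Myl4, the ventricular and atrial chains not shown above, had no match to any of these motifs. The CArG box of Myl7 ran from 61 to 52 bases before the start, with CATTCC from 70 to 65 bases before it and no overlap between them. Myl3, lower in the transgenic section, and Myl7 and Myl9, higher there, each had this box, and its part in these differences was not tested. A member was counted if any of its windows held a match, so member counts and percents of single windows are in unlike units. These matches are letters in a window and were not tested as sites.

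Of the 8 members, 3 were more than 2-fold higher in the transgenic section (Myl1, Myl7 and Myl4), beside 13.7% of the 15236 genes compared, and 3 were more than 2-fold lower (Myl2, Myl3 and Mylk3), beside 5.61% of them. Past 2-fold in either direction were 6 of 8 members, beside 19.3% of all genes. The 3 lower ones did not pass 2-fold per UMI of the cardiomyocyte markers, an alternative added after seeing the data, in which Myl2 was at -0.72, Myl3 at -0.51 and Mylk3 at -0.69 on the log2 scale. In the 50% of spots richest in cardiomyocyte markers Mylk3 was at -1.18, while Myl2 at -0.94 and Myl3 at -0.67 were short of 2-fold. Myl9 was higher by less than 2-fold, and the interval of Mylk held 0. The median log2 ratio of CPM, transgenic over control, was 0.20 over all genes compared, of which 63.2% were higher in the transgenic section. The plot of CPM by section shows the levels of the 8 genes. Levels of different genes rest on different probes, so only the same gene is compared between sections.

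**Figure D1:**
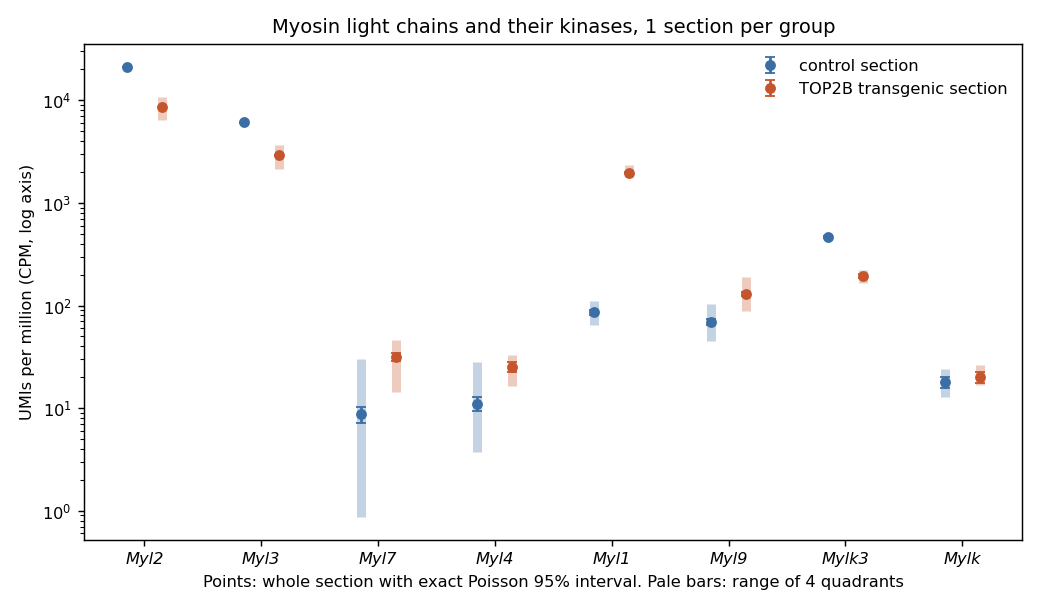
CPM of 8 myosin light chain and kinase genes (log axis) in the control section (blue) and the TOP2B transgenic section (orange), 1 section each. Points with caps are whole-section values with exact Poisson 95% intervals, and pale bars span 4 quadrants of a section. Myl1 sits at 85.8 CPM in the control against 1962 CPM in the transgenic section, while Myl2, Myl3 and Mylk3 sit lower in the transgenic section and Mylk overlaps.

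Both ventricular chains were lower in the transgenic section. Myl2 (ENSMUSG00000013936) had 303048 UMIs or 21080 CPM in the control against 111997 UMIs or 8646 CPM in the transgenic section, a log2 change of -1.29 (-1.30 to -1.28). Myl3 (ENSMUSG00000059741) had 87784 UMIs or 6106 CPM and 37651 UMIs or 2907 CPM, a log2 change of -1.07 (-1.09 to -1.05). Neither the quadrants of Myl2, 20600 to 21380 CPM in the control and 6392 to 10754 CPM in the transgenic section, nor those of Myl3, 5791 to 6462 CPM and 2121 to 3700 CPM, overlapped between the sections. The cardiomyocyte markers were also lower in sum, 48976 CPM against 33163 CPM, -0.56 on the log2 scale. They did not move alike. Mb was at -1.77 (14147 against 4150 CPM), Ckmt2 at -1.24 and Tnnc1 at -0.21. Tnnt2, the 1 of 7 that was higher in the transgenic section, was at 0.17 (13091 against 14721 CPM). Values per UMI of these markers thus rest on genes that differed from each other. The part of these markers in the lower ventricular chains and Mylk3 was not tested.

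Both ventricular chains were found nearly everywhere, Myl2 in 99.8% of control and 98.7% of transgenic spots and Myl3 in 99.8% and 97.9%. Their evenness differed between the sections, as did that of other abundant genes. The deposited Moran's I, which is near 0 for a gene spread without order and near 1 for one whose neighbouring spots are alike, was 0.05 for Myl2 and 0.10 for Myl3 in the control and 0.67 and 0.66 in the transgenic section. Such a rise was not particular to the light chains. Moran's I went from 0.08 to 0.57 for the cardiomyocyte marker Ttn and from 0.06 to 0.50 for the endothelial marker Fabp4. It went from 0.10 to 0.52 for the fibroblast marker Dcn. The smooth muscle markers went both ways. Tagln fell from 0.31 to 0.22 and Myh11 from 0.22 to 0.14. Cnn1 rose from 0.04 to 0.29, Smtn from 0.03 to 0.16 and Acta2 from 0.36 to 0.41, and Synpo2 and Lmod1 rose by less than Smtn. The smooth muscle chain Myl9 rose from 0.20 to 0.30. Across quadrants Myl2 varied little in the control and was lowest at 6392 CPM and highest at 10754 CPM in the transgenic section, and the quadrants of Myl3 fell in the same order there.

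Myl2 and Myl3 had a Pearson correlation over spots of 0.47 in the control (1256 spots) and 0.86 in the transgenic section (923 spots with a UMI), on the natural log of UMIs per 10000 plus 1. Spots of a section share a library, differ in depth and lie next to each other, so these values are descriptions. In the transgenic section both chains ran against the hemoglobin gene Hba-a2, at r of -0.57 for Myl2 and -0.47 for Myl3. In the 859 transgenic spots with under 5% erythroid UMIs, Myl2 and Myl3 still had an r of 0.82, while Myl2 and Hba-a2 had an r of 0.16. The genes most like Myl2 were Tpm1 (0.72), Slc25a4 (0.71) and Atp5a1 (0.70) in the control and Myh6 (0.88), Slc25a4 and Fabp3 (both 0.87) in the transgenic section, that is a tropomyosin, the heart's adenine nucleotide carrier, an ATP synthase subunit, the α myosin heavy chain and the heart fatty acid-binding protein. For Myl3 they were Fabp3 (0.63), the calcium pump gene Atp2a2 (0.58) and Tnnt2 (0.57) in the control and Fabp3, the myoglobin gene Mb and Slc25a4 (all 0.85) in the transgenic section.

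The balance of the ventricular pair moved little. Myl3 made up 22.5% of Myl2 and Myl3 UMIs in the control (22.3 to 22.6) and 25.2% in the transgenic section (24.9 to 25.4). Quadrants ran from 21.6% to 23.9% and from 24.6% to 25.6%. The 6 measured light chains of the list together took 2.74% of all control UMIs and 1.37% of all transgenic UMIs. These are sums of counts from different probes, so they do not show whether the gain of Myl1 made up for the lower ventricular chains.

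The fast skeletal essential chain Myl1 (ENSMUSG00000061816) differed most between the sections of the 8 members. It had 1234 UMIs or 85.8 CPM (81.1 to 90.8) in the control against 25418 UMIs or 1962 CPM (1938 to 1987) in the transgenic section, 22.9-fold higher, a log2 change of 4.51 (4.43 to 4.60). This placed it 41st from the top among the 15236 genes compared. Quadrants ran from 64.9 to 111 CPM in the control and from 1778 to 2358 CPM in the transgenic section and did not overlap.

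With Myl3 lower and Myl1 higher, the makeup of the essential chains changed. Myl1 was 1.38% of Myl3, Myl1 and Myl4 UMIs in the control (1.31 to 1.46) and 40.1% in the transgenic section (39.7 to 40.5), and Myl3 was 98.4% and 59.4%. Quadrants gave a Myl1 share of 1.11% to 1.76% in the control and 32.4% to 46.7% in the transgenic section. These shares compare probe counts, so they do not give the molar makeup of the chains, and only their shift between sections can be read.

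**Figure D2:**
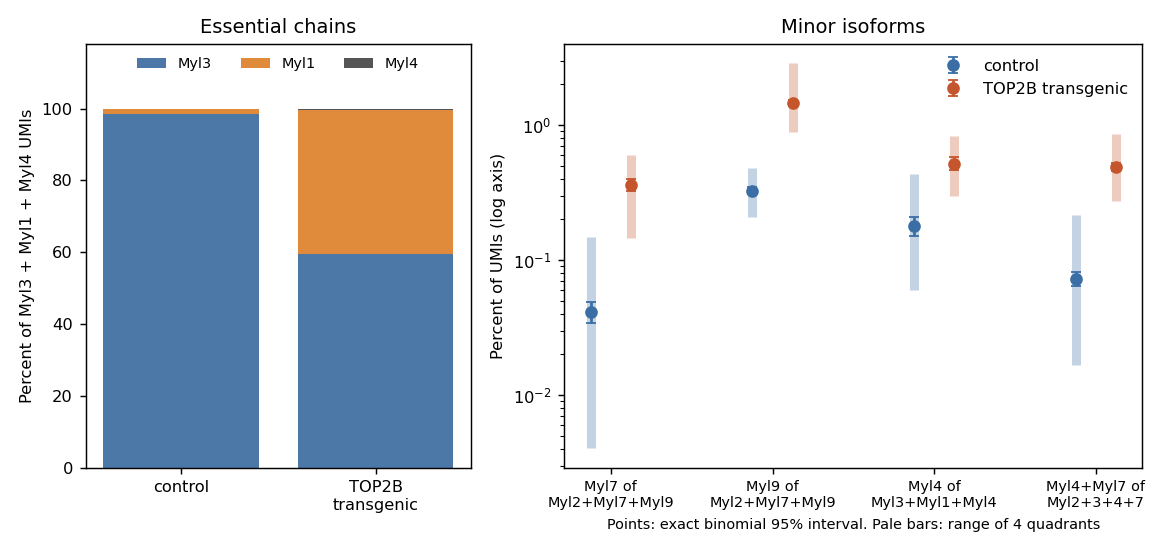
Left, bars from 0 show the share of Myl3, Myl1 and Myl4 in their summed UMIs in the control and TOP2B transgenic sections, 1 section each, with Myl1 at 1.38% and 40.1%. Right, on a log axis, points show minor isoform shares in percent of the UMIs named under each, with exact binomial 95% intervals as caps and the range of 4 quadrants as pale bars: each share lies higher in the transgenic section, and the quadrant bars overlap for Myl4 of the essential chains and, by a little, for Myl7 of the regulatory chains.

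Nearly every transgenic spot had some Myl1. It had a UMI in 55.9% of control spots (702 of 1256) and 96.4% of transgenic spots (891 of 924). With every spot thinned to 8134 UMIs and shallower spots left out (140 control and 78 transgenic), the shares were 46.3% and 99.9%. Among spots with at least 20 UMIs of the 3 essential chains, the Myl1 share had a median of 1.14% in the control (1242 spots, 10th to 90th percentile 0% to 3.66%). In the transgenic section the median was 40.0% (867 spots, 23.5% to 57.4%). Counting error around 1 common share would give 32.35% to 47.9% in these transgenic spots, a narrower span than the one seen.

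The share was also patchy. A transgenic spot's Myl1 share and the mean share of its neighbours had an r of 0.73 (860 spots), and by quadrant the share was highest at the upper right of the map and lowest at the lower left. Myl1 itself had a Moran's I of 0.20 in the control and 0.64 in the transgenic section. By distance from the edge Myl1 varied less than by quadrant in the transgenic section, the outermost ring of spots having 1909 CPM and spots in the third ring or deeper 2018 CPM. In the control the outermost ring had 105 CPM (91.5 to 120) and spots in the third ring or deeper 80.6 CPM (75.0 to 86.4).

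**Figure D3:**
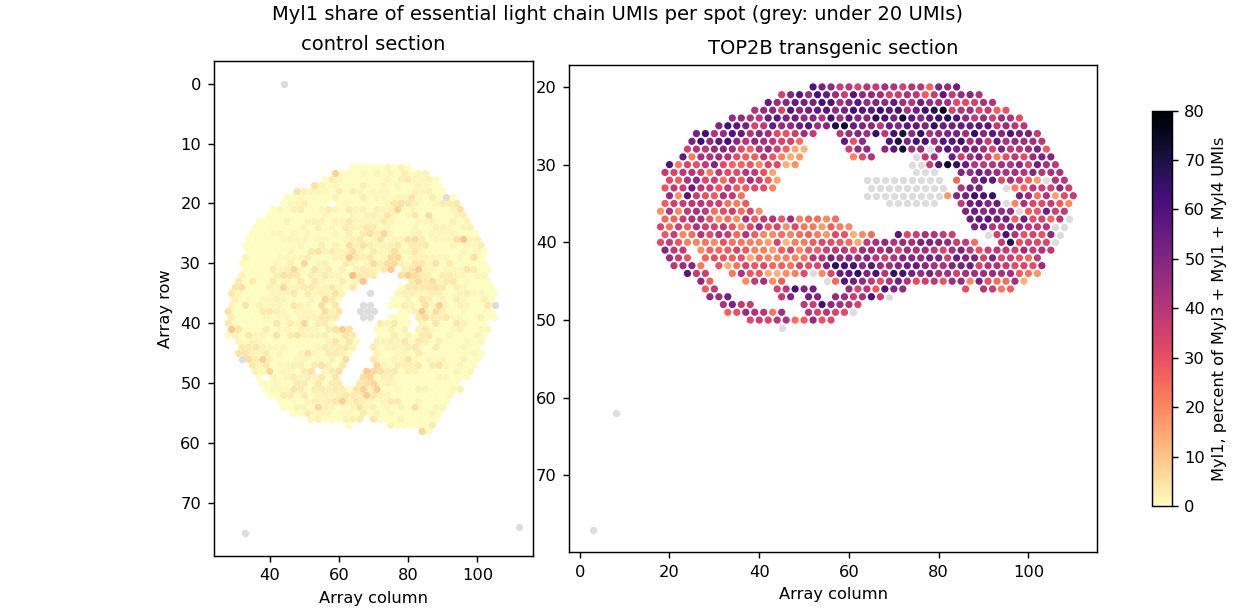
Each dot is a spot at its array column and row, coloured by the percent of Myl1 in Myl3, Myl1 and Myl4 UMIs, with spots under 20 such UMIs in grey, for the control section (left) and the TOP2B transgenic section (right). The control is uniformly low, with a spot median of 1.14%, and the transgenic section ranges widely around its median of 40.0%.

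Myl1 ran with the cardiomyocyte genes in the transgenic section when all spots were taken. The genes most like it were Tpm1 (0.78), the small heat shock protein gene Hspb7 (0.77) and the cardiac troponin C gene Tnnc1 (0.76). Its r was 0.70 with Myl2 and -0.55 with Hba-a2 over all 923 spots, and 0.27 with Myl2 in the 859 spots with under 5% erythroid UMIs, so the first value rested largely on the few hemoglobin-rich spots. Between the same sets of spots its r went from 0.64 to 0.29 with Myl3, from 0.69 to 0.15 with Myh6 and from 0.47 to -0.20 with Myh7. The r of Myl1 with Tpm1, Hspb7 and Tnnc1 was not taken in the 859 spots. The Myl1 share had an r of -0.13 with the share of Myh7 in Myh6 and Myh7 UMIs (867 spots), that is the 2 isoform shares did not run together from spot to spot, although Myh7, the β or slow heavy chain, went from 0.182% to 57.8% of that pair. In the control the closest genes to Myl1 were Nppa (0.28), Sdc4 (0.22) and Myh7 (0.17), values too weak in sparse counts to read.

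Other genes of fast skeletal muscle were few in UMIs and did not all move alike. Of 8 skeletal muscle markers, Myh1, Myh2, Myh4 and Atp2a1 had under 10 UMIs in each section (2 to 6 UMIs), and the 8 genes summed to 7.93 CPM in the control against 42.4 CPM in the transgenic section. The fast troponin T gene Tnnt3 made most of that sum, with 18 and 384 UMIs, a log2 change of 4.57 (3.89 to 5.34), and its r with Myl1 in the transgenic section was 0.16. The Z-disc gene Actn3 was at 1.96 (1.14 to 2.86) and the fast troponin I gene Tnni2 at 1.02 (0.45 to 1.61), while the calcium buffer gene Pvalb, with 23 and 22 UMIs, had an interval that held 0.

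The atrial chains were rare in both sections and differed in where they lay. Myl7 (ENSMUSG00000020469) had 125 UMIs or 8.69 CPM (7.24 to 10.4) in the control against 409 UMIs or 31.6 CPM (28.6 to 34.8) in the transgenic section, a log2 change of 1.86 (1.57 to 2.16). Myl4 (ENSMUSG00000061086) had 158 UMIs or 11.0 CPM (9.34 to 12.8) and 328 UMIs or 25.3 CPM (22.7 to 28.2), a log2 change of 1.20 (0.93 to 1.49). Quadrants overlapped for both genes: Myl7 ran from 0.864 to 30.5 CPM in the control and from 14.3 to 46.3 CPM in the transgenic section, Myl4 from 3.74 to 28.3 CPM and from 16.3 to 33.2 CPM.

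In the control section Myl7 lay in 29 of 1256 spots, 2.31%, and 3 spots held 50% of its UMIs, with up to 36 in a spot. In the transgenic section it lay in 292 of 924 spots, 31.6%, at no more than 5 UMIs each, and 88 spots were needed for 50%. Myl4 lay in 6.37% of control and 27.9% of transgenic spots, with 50% of its UMIs in 8 and 94 spots. Thinned to 8134 UMIs, the shares of spots were 1.34% and 19.9% for Myl7 and 4.48% and 17.4% for Myl4. The map of both chains shows 1 dark patch on the upper edge of the control section and low counts in many spots of the transgenic section. Myl7 was not without order there, with a Moran's I of 0.20 beside 0.35 in the control. Its largest run there was of 83 adjoining spots with a Myl7 UMI. That run held 123 of its UMIs (30.1%), but it was drawn from Myl7 itself, so this share is no sign of order.

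**Figure D4:**
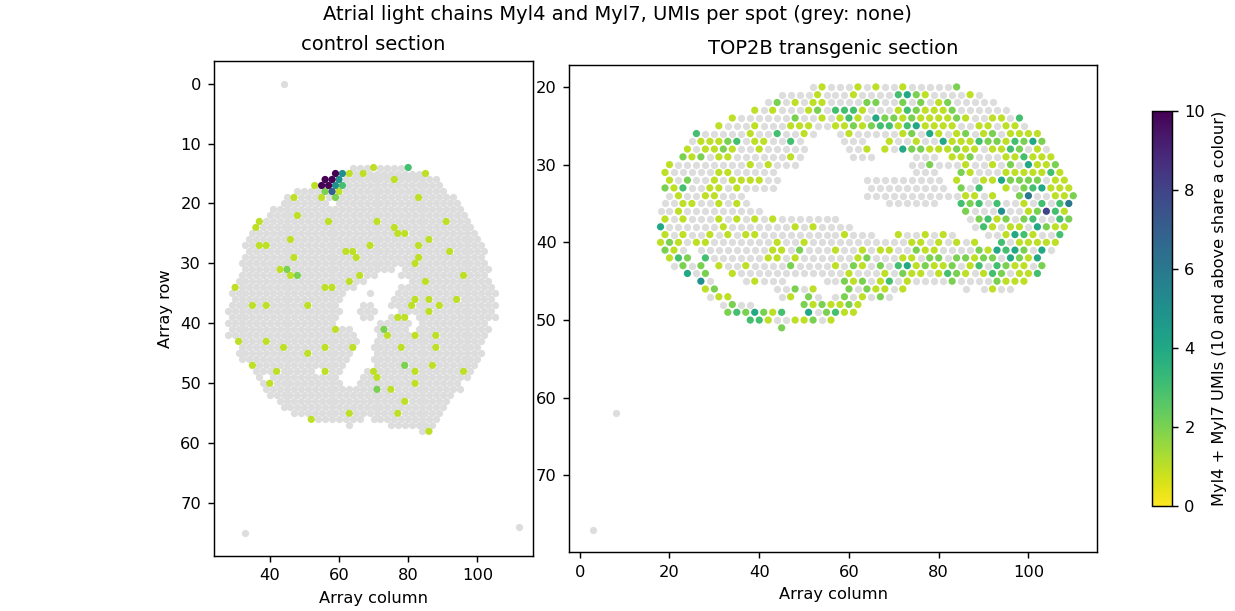
Each dot is a spot at its array column and row, coloured by the UMIs of Myl4 and Myl7 together, with spots without one in grey and spots of 10 or more sharing the darkest colour, for the control section (left) and the TOP2B transgenic section (right). The control shows 1 dense patch on the upper edge, in which single spots reach 36 Myl7 UMIs, and the transgenic section shows low counts in many spots.

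The control patch was a run of 14 adjoining spots with a Myl7 UMI. It held 108 of the 125 Myl7 UMIs (86.4%) and 83 of the 158 Myl4 UMIs (52.5%). It also held 7 of 16 UMIs of Sln, the atrial calcium pump inhibitor sarcolipin, and 4 of 14 of Mybphl, an atrial myosin-binding protein. For scale, the patch held 126171 of the 14376300 control UMIs of all genes. Of the other listed atrial markers, Dkk3 had 5 of 57 UMIs in the patch. That is 39.6 CPM (12.9 to 92.5), against 3.65 CPM (2.73 to 4.79) in the other control spots. Kcnj3, the one with the most UMIs, had 10 of 1137 and was not enriched, at 79.3 CPM against 79.1 CPM in the other control spots. The spots of the patch read Myl2 at 16755 CPM and Myl3 at 6245 CPM, beside 21118 and 6105 CPM in the other control spots. Bmp10, an atrial growth factor gene, had 0 UMIs in the patch, with an interval up to 29.2 CPM, and 9 in the whole control section.

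Because that run was drawn from Myl7 itself, spots were also taken by other genes, those in which a spot and its 6 neighbours held at least 4 UMIs of Sln, Bmp10 and Mybphl, a rule chosen after seeing the data. It picked 9 control spots and no transgenic spot. In those 9 spots Myl7 was at 1226 CPM (996 to 1492) and Myl4 at 978 CPM (774 to 1219), and in the other 1247 control spots at 1.82 CPM (1.19 to 2.66) and 5.53 CPM (4.38 to 6.89). Without them the log2 ratio of Myl7 went from 1.86 to 4.12 and that of Myl4 from 1.20 to 2.20. Away from the patch both atrial chains were thus rarer in the control section than the whole-section values show.

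The other atrial markers did not share that difference as a group. Over the sections Sln had 16 and 10 UMIs, Bmp10 9 and 9, and Mybphl 14 and 14. Kcnj3, an atrial potassium channel gene, had 1137 and 590 UMIs, and Dkk3 57 and 947. In the 5% of spots richest in these 5 markers, Myl7 was 4.50 higher on the log2 scale than in the other spots of the control (3.97 to 5.03) and 0.42 higher in the transgenic section (-0.24 to 1.02), and Myl4 differed by 3.19 (2.67 to 3.69) and -0.17 (-1.10 to 0.62). In the richest 10% the difference of Myl7 in the transgenic section was 0.45 (0.0058 to 0.87). Kcnj3 made up 1137 of the 1233 UMIs of these markers in the control, and Dkk3 947 of 1570 in the transgenic section. The marker-rich spots of the 2 sections were thus picked mainly by different genes. In the 5% richest in Sln, Bmp10 and Mybphl alone, a list chosen after seeing the data, Myl7 differed by 5.52 (4.94 to 6.12) and 0.28 (-0.33 to 0.84). Myl4 differed there by 4.10 (3.63 to 4.57) and -0.80 (-1.82 to 0.06). Each of these genes had a UMI in at most 1.04% of control and 1.41% of transgenic spots. The 5% sets thus also took in spots with no UMI of any of them and do not describe marker-holding spots alone. In the richest 2% by this list Myl7 differed by 7.06 in the control and -0.10 in the transgenic section, and Myl4 by 5.53 and -1.61. Both transgenic intervals held 0 there. In the 5% of spots richest in smooth muscle markers, transgenic Myl7 was at 82.6 CPM against 28.6 CPM elsewhere, 1.53 higher on the log2 scale (1.11 to 1.93), or 1.25 (0.77 to 1.70) by Tagln, Myh11, Cnn1 and Lmod1 alone, a list chosen after seeing the data. The control spots richest in the full list held 0 Myl7 UMIs, with an interval up to 5.11 CPM. Myl4 and Myl7 had an r over spots of 0.69 in the control and 0.15 in the transgenic section, and Myl7 and Sln of 0.63 and -0.01.

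In the transgenic section the genes most like Myl7 were Ccn5 (0.39), Gpx3 (0.36) and Clu (0.35), which encode a matricellular protein, a secreted glutathione peroxidase and the chaperone clusterin. In the control their r with Myl7 was 0.01, 0.19 and 0.06. For Myl4 in the transgenic section they were Gpx3 (0.23), Col1a2 and Mgp (both 0.21), too weak in sparse counts to read. Of 5 fibroblast markers, Pdgfra at 1.16, Dcn at 1.05 and Tcf21 at 2.01 were higher in the transgenic section, while Dpt at 0.06 (-0.04 to 0.17) and Gsn, whose interval also held 0, did not differ beyond counting error. Their sum was 0.51 higher on the log2 scale, and their part in the Myl7 pattern was not tested.

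As shares, the atrial pair was 0.0724% of Myl2, Myl3, Myl4 and Myl7 UMIs in the control (0.0642 to 0.0813) and 0.490% in the transgenic section (0.455 to 0.527). Quadrants ran from 0.0167% to 0.217% and from 0.274% to 0.851%. In the control the highest quadrant was the one with the patch, and without the 9 spots near atrial markers the share was 0.0270%. Ventricular chains thus stayed above 99% of these UMIs in both sections. Of the ventricular markers, Irx4 was at 56.1 and 13.4 CPM, Pln at 5925 and 2904 CPM, and Hey2 had 13 and 16 UMIs.

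The smooth muscle chain Myl9 (ENSMUSG00000067818) had 993 UMIs or 69.1 CPM (64.8 to 73.5) in the control against 1668 UMIs or 129 CPM (123 to 135) in the transgenic section, a log2 change of 0.90 (0.78 to 1.01). It was also in more spots, 41.0% of control and 67.7% of transgenic spots, or 32.4% and 53.7% after thinning. Quadrants of 44.6 to 103 CPM and 87.7 to 190 CPM overlapped. Its share of the regulatory chains Myl2, Myl7 and Myl9 was 0.326% in the control (0.307 to 0.347) and 1.46% in the transgenic section (1.39 to 1.53), a shift to which the lower Myl2 also contributed, since the share divides by it.

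In the control Myl9 lay with the vessel wall genes. In the 5% of spots richest in 7 smooth muscle markers it was at 414 CPM against 50.8 CPM elsewhere, a log2 difference of 3.03 (2.83 to 3.22), and in the transgenic section at 360 CPM against 115 CPM, a log2 difference of 1.64 (1.44 to 1.83). Between the sections, Myl9 had a log2 ratio of -0.20 (-0.45 to 0.04) in the marker-rich spots and 1.18 (1.05 to 1.31) in the rest. With Tagln, Myh11, Cnn1 and Lmod1 alone as markers, a choice made after seeing the data, these were -0.22 (-0.48 to 0.03) and 1.23 (1.10 to 1.36). In the richest 10% by the full list the order in the rich spots turned, with 263 CPM in the control against 314 CPM in the transgenic section, beside 47.8 and 107 CPM elsewhere.

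The genes most like Myl9 differed between the sections. In the control the genes most like it were Tagln (0.52), the smooth muscle heavy chain Myh11 (0.46) and Tpm2 (0.43), all genes of contractile smooth muscle. In the transgenic section they were the matrix Gla protein gene Mgp (0.45), Ccn5 and the collagen gene Col1a2 (both 0.44), with Tagln at 0.35 and Myh11 at 0.22. In the control Mgp, Ccn5 and Col1a2 had an r with Myl9 of 0.26, 0.05 and 0.16. The 7 smooth muscle markers summed to 810 CPM in the control against 785 CPM in the transgenic section and did not move together, Cnn1 being 2.74 higher on the log2 scale and Smtn -0.95.

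The cardiac kinase Mylk3 (ENSMUSG00000031698) was lower in the transgenic section, by about as much as its substrate Myl2. It had 6681 UMIs or 465 CPM (454 to 476) in the control against 2523 UMIs or 195 CPM (187 to 203) in the transgenic section, a log2 change of -1.25 (-1.32 to -1.19). It had a UMI in 98.2% and 86.7% of spots, or 97.0% and 77.9% after thinning. Quadrants of 446 to 480 CPM and 167 to 220 CPM did not overlap, the level being lower in all 4. Its Moran's I was 0.03 in the control and 0.17 in the transgenic section. Its closest genes in the transgenic section were Myh7 (0.42), the Z-disc gene Tcap (0.40) and the M-band gene Myom2 (0.38), and in the control none was above 0.23. In the 859 transgenic spots with under 5% erythroid UMIs the r of Mylk3 with Myh7 was 0.28, so the value over all spots rested in part on hemoglobin-rich spots.

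The smooth muscle and nonmuscle kinase Mylk (ENSMUSG00000022836) had 256 UMIs or 17.8 CPM (15.7 to 20.1) in the control against 260 UMIs or 20.1 CPM (17.7 to 22.7) in the transgenic section. Its log2 ratio was 0.17 (-0.08 to 0.43), and relative to the median of all genes -0.03. A difference up to the bounds of that interval was not detectable at this depth. Its spots were more in number in the transgenic section mainly at full depth, 16.3% and 24.1% of spots, or 11.3% and 13.4% after thinning. In the smooth muscle marker-rich spots it was at 84.5 CPM in the control against 51.8 CPM in the transgenic section, a log2 change of -0.71 (-1.34 to -0.09), and in the rest at 14.3 and 18.2 CPM, 0.35 (0.07 to 0.64). With the shorter marker list the first of these was -0.38 (-0.98 to 0.21). In both sections its closest gene was Tagln, at r of 0.36 and 0.21.

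Mylk3 was 96.3% of Mylk and Mylk3 UMIs in the control (95.8 to 96.7) and 90.7% in the transgenic section (89.5 to 91.7). Quadrants ran from 95.2% to 97.4% and from 89.1% to 92.7% and did not overlap.

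Genes that work with the light chains were taken from 5 lists. Of the 13 other kinases and regulators with at least 20 UMIs, 12 were higher and 1 lower, beside 63.2% of all genes higher, with a median log2 ratio of 0.53 beside 0.20 for all genes. The 1 lower was Mylk4, a further member of the kinase family, with 1764 and 211 UMIs, a log2 change of -2.91 (-3.13 to -2.71), a wider difference than that of Mylk3. At the other end the skeletal muscle kinase Mylk2 had 13 and 103 UMIs, a log2 change of 3.14 (2.30 to 4.09). The kinase Dapk3 was at 0.78 (0.67 to 0.89) and the GTPase gene Rhoa at 0.53 (0.49 to 0.58). Past 2-fold were 2 of 13 higher (Mylk2 and Pak1), beside 13.7% of all genes, and 1 lower, beside 5.61%.

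Of 6 genes of myosin phosphatase and its inhibitors, 5 were higher and 1 lower, with a median of 0.33, beside the same 63.2% and 0.20 over all genes. With TMM factors these counts were 4 and 2 and the median 0.18. The lower one was Ppp1r12b, the targeting subunit found in striated muscle, with 2827 and 826 UMIs and a log2 change of -1.62 (-1.74 to -1.51), and the highest was the inhibitor Ppp1r14b, with 2046 and 5024 UMIs and 1.45 (1.37 to 1.52). Ppp1r12a, the subunit of smooth muscle and other cells, was at 0.54 (0.40 to 0.68), and the catalytic subunit Ppp1cb at 0.32 (0.26 to 0.38). Thus the cardiac kinase Mylk3, Mylk4 and Ppp1r12b each lay below -1 on the log2 scale while Mylk and Ppp1r12a did not. The skeletal muscle kinase Mylk2 went the other way, at 3.14, and per UMI of the cardiomyocyte markers Mylk3 was at -0.69.

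Among 4 other light chain genes, 3 were higher and 1 lower, beside 63.2% of all genes higher. Their median was 0.59, beside 0.20 for all genes. Away from the tissue edge 4 were higher and 0 lower, and with at least 200 UMIs over both sections 1 and 0. Myl6b, an essential chain of slow muscle and nonmuscle cells, had 20 and 106 UMIs, a log2 change of 2.56 (1.86 to 3.32). The fast skeletal regulatory chain Mylpf, which pairs with Myl1 in fast fibres, had 36 and 63 UMIs, 0.96 (0.34 to 1.59), or 2.50 and 4.86 CPM. Myl12a, a nonmuscle regulatory chain, had 17617 and 18626 UMIs, 0.23 (0.20 to 0.26), and Myl10, the lowest of the list, 12 and 10 UMIs, -0.11 (-1.48 to 1.22).

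Of 10 thick filament genes of striated muscle, 4 were higher and 6 lower, beside 63.2% of all genes higher. Their median was -0.47, beside 0.20 for all genes. The intervals of Mybphl and Myom2, among the 4, held 0, and with TMM factors 1 was higher and 9 lower and with DESeq2 size factors 1 higher and 8 lower. The highest was Myh7, with 483 and 101646 UMIs, a log2 change of 7.87 (lower bound 7.74), and the lowest Myh6, with 265534 and 74280 UMIs, -1.69 (-1.70 to -1.68). Smyd1, a histone methyltransferase of muscle, was at -1.41 (-1.46 to -1.36), and titin, Ttn, at -0.60. Of 4 smooth muscle and nonmuscle heavy chains, 3 were higher, with a median of 0.58, beside the same 63.2% and 0.20 over all genes. They ran from Myh11 at -0.61 (-0.83 to -0.40) to Myh10, a nonmuscle chain, at 2.12 (1.97 to 2.27).

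**Figure D5:**
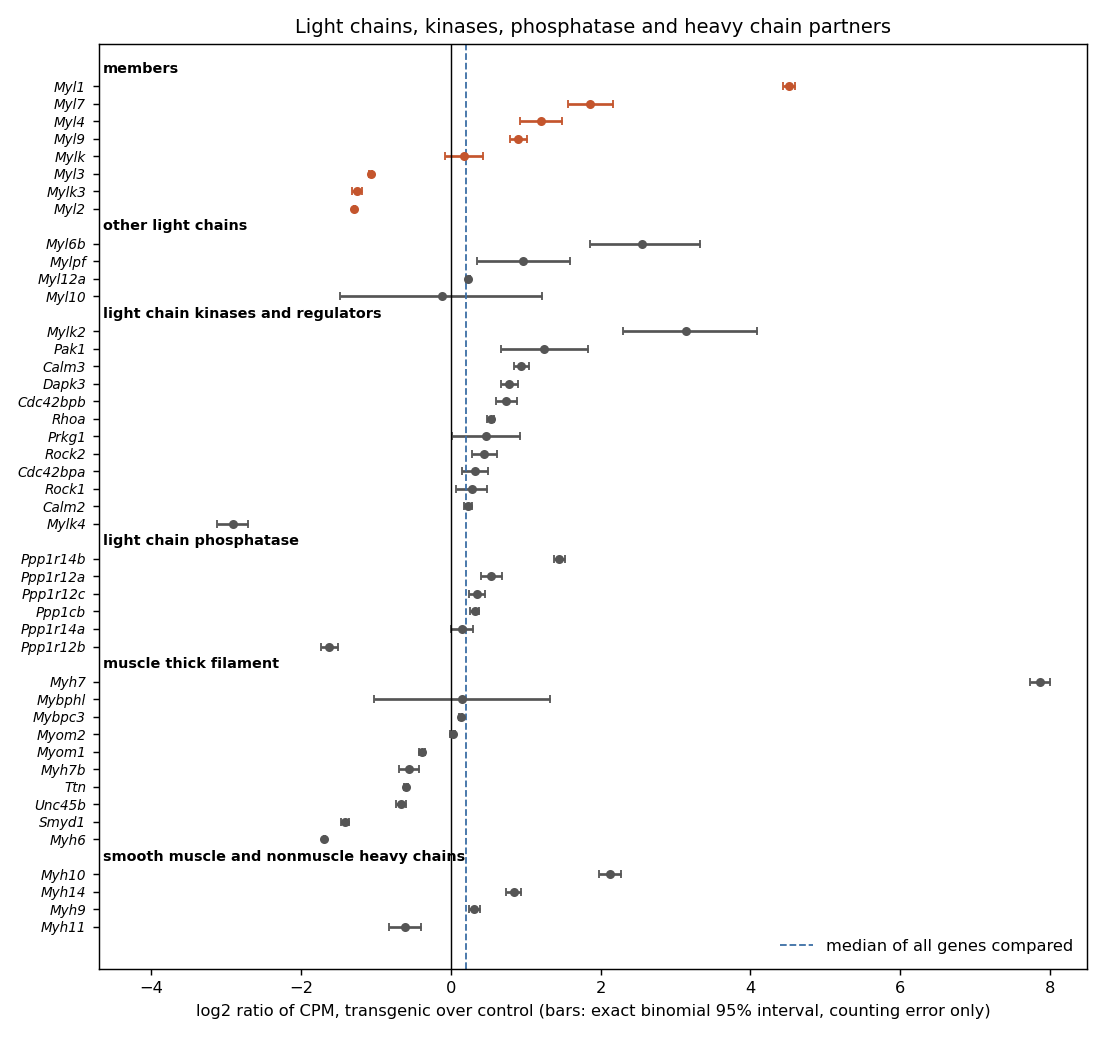
Log2 ratio of CPM, TOP2B transgenic over control, for the 8 members (orange) and the genes of 5 partner lists with at least 20 UMIs over both sections (grey, 1 list gene not shown), grouped by list, with exact binomial 95% intervals. The dashed line is the median of all genes compared, 0.20, and the solid line is 0. Myh7 at 7.87 and Myl1 at 4.51 lie farthest to the right and Mylk4 at -2.91 farthest to the left.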

How the data were processed

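Deposited UMI counts per gene and spot were read for 2 Visium CytAssist sections, 1 control and 1 TOP2B transgenic, with array positions and a deposited Moran's I score per gene. Per the file headers the counts were made by the authors with Space Ranger 2.0.0, and the submitters' processing notes name bcl2fastq, Space Ranger and the builds GRCm39 and mm39. The probe set was not given in the sources used here. Counts are of molecules caught by gene-specific probes, so levels of different genes are not comparable per length, and a gene without a row was not analysed. The deposited summed counts per gene matched the sums over spots. Spot barcodes name array positions, and 725 were shared by both sections.

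UMIs were summed per section and divided by all UMIs (counts per 1000000, CPM). Intervals are exact (Poisson for a level, conditional binomial for a ratio, Clopper-Pearson for a share) at 95%, for counting error only, and a count of 0 was set to 3. Genes with at least 20 UMIs over both sections were compared. Spots are not replicates, so no test was run, and the Wilcoxon test over spots of the study's methods was not repeated. Spatial values used 4 quadrants, rings from the tissue edge, and spots in the top 5% for the share of marker UMIs. The members, marker lists and partner lists were chosen with earlier results of these data known. Named were the 9 members, list genes with at least 20 UMIs including the highest and lowest of each list, atrial, ventricular and smooth muscle markers, and the 3 genes most correlated with each member having at least 200 UMIs in a section. Skeletal muscle markers, the correlations of those genes in the other section, and Top2b and Hba-a2 were added after their values were seen. Of the genes of the lists, 1 is counted but not reported here by name. Promoter sequences are RefSeq's for GRCm38.p6, matched by symbol. The ratio intervals were tested on simulated Poisson counts, the model they assume. That check does not bear on spread between mice, sections or libraries. The steps used Python 3.11.15, numpy 2.4.6, scipy 1.17.1, R 4.3.3, edgeR 4.0.16 (TMM factors) and DESeq2 1.42.0 (size factors).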

Additional observations from a re-analysis of the deposited data

How the results depend on the processing

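No paired analysis was possible because each group is 1 section. The interval of Mylk held 0, so its sign is not read as a direction. Every member kept its sign in all 12 alternatives to the log2 ratio, with ranges of -1.44 to -0.72 for Myl2, -1.23 to -0.51 for Myl3, 0.74 to 2.20 for Myl4, 1.14 to 4.12 for Myl7, 4.36 to 5.08 for Myl1, 0.43 to 1.46 for Myl9, -1.41 to -0.69 for Mylk3 and 0.02 to 0.74 for Mylk. Of these, 3 were added after seeing the data, namely spots with under 5% erythroid UMIs, spots not near atrial marker UMIs, and division by cardiomyocyte marker UMIs. TMM factors moved the median of all genes from 0.20 to 0.05, DESeq2 size factors to 0.05 and totals without the 50 most abundant genes to 0.12. Each moved every ratio by the same amount, Myl2 to -1.44, -1.44 and -1.37 and Myl1 to 4.36, 4.36 and 4.43. The DESeq2 size factors were 1 in both sections, so that alternative compares summed UMIs without any scaling. In the 50% of spots richest in cardiomyocyte markers Myl2 was at -0.94 and Myl1 at 4.92, and per UMI of those markers at -0.72 and 5.08. Myl2 was at -1.27 away from the edge, -1.26 in spots with under 5% erythroid UMIs and -1.30 as a mean over spots. The Myl1 share was 1.18% (control) and 36.4% (transgenic) in the 50% richest in cardiomyocyte markers, and 40.6% away from the edge in the transgenic section. The atrial share of the control was 0.0329% away from the edge, 0.0289% in the 50% richest in cardiomyocyte markers, 0.0455% outside the 5% of spots richest in atrial markers, 0.0270% away from atrial marker UMIs and 0.127% as a mean over spots, and that of the transgenic section was 0.255% in the 50% richest in cardiomyocyte markers and 0.644% as a mean over spots. The median of the thick filament list turned from -0.47 to 0.0923 per UMI of the cardiomyocyte markers. As a mean over spots, Myl7 was at 1.14 and Myl4 at 0.74. The cause of these shifts was not tested. Depth limits Myl4, Myl7 and Mylk, which rest on 125 to 409 UMIs a section, and the single section per group limits every comparison.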
